A study of Homo sapiens with 12 samples.

Results

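The genes described here are 10 components of the Notch pathway. They are the receptors NOTCH1, NOTCH2 and NOTCH3, the ligands JAG1, JAG2 and DLL1, and the transcriptional targets HES1, HEY1, HEY2 and NRARP. They were chosen by gene symbol, and each of the 10 matched 1 of the 60675 genes in the count tables. RNA was sequenced from LNCaP, an androgen-dependent human prostate cancer cell line, and from LNCaP:C4-2 (C4-2 below), its castration-resistant derivative, with 2 libraries in each of 6 groups. Every culture, controls included, was grown in hormone-depleted medium and given the synthetic androgen R1881 at 1 nM, and treatment lasted 72 h. In C4-2 the groups were R1881 alone, R1881 with namoline (50 µM, an inhibitor of the histone demethylase KDM1A), R1881 with TCE-5002 (a compound that preferentially inhibits another demethylase, KDM7A) and R1881 with both inhibitors, called the combination. LNCaP was represented by R1881 alone and by the combination, with no single treatment. For TCE-5002 the series text gives 100 µM and the methods less, which leaves its dose uncertain.

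Notch receptors are cleaved when a Jagged or Delta-like ligand on a neighbouring cell binds them, and the released intracellular domain joins the DNA-binding protein RBPJ to switch on target genes. HES1, HEY1 and HEY2 encode basic helix-loop-helix repressors, and NRARP encodes an ankyrin-repeat protein that limits Notch signalling. In the prostate the pathway takes part in the balance between basal and luminal cells.

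In the count annotation (GRCh38) the receptors lie on the minus strand, NOTCH1 (ENSG00000148400) at chr9:136494444-136545862, NOTCH2 (ENSG00000134250) at chr1:119911553-120069626 and NOTCH3 (ENSG00000074181) at chr19:15159038-15200981. The ligands, also on the minus strand, are JAG1 (ENSG00000101384) at chr20:10637684-10674107, JAG2 (ENSG00000184916) at chr14:105140981-105168824 and DLL1 (ENSG00000198719) at chr6:170282206-170306565. Of the targets, HES1 (ENSG00000114315) lies at chr3:194136145-194138732 and HEY2 (ENSG00000135547) at chr6:125747664-125761269 on the plus strand, NRARP (ENSG00000198435) at chr9:137300482-137302251 on the minus strand, and HEY1 (ENSG00000164683) on chromosome 8. Each value is a count over all exons of the gene. JAG1 and JAG2 share exon positions with annotated non-coding genes that held 1 and 0 counts over the 12 libraries.

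One library was in doubt. The header of the count table of LNCaP combination replicate 1 names an alignment of namoline-treated cells without TCE-5002, while its label says combination, so the tests of the LNCaP combination are given with and without it. Library totals ran from 14791602 to 20690819 counts. Replicates correlated at r 0.992 to 0.997 across genes, which are not independent replicates, and the C4-2 TCE-5002 pair stood farthest apart. The libraries labelled LNCaP carried luminal transcripts (all 13 markers above 1 CPM, the count scaled to a common library size) at a summed level of 1054 to 1139 CPM with R1881 alone, against 5379 to 5495 CPM in C4-2. KLK3 went against that sum, at 397 and 355 CPM in LNCaP and 206 and 228 CPM in C4-2. The other luminal markers were lower in the LNCaP-labelled libraries. Of 9 mesenchymal markers, VIM was at 640.0 and 732 CPM and CDH2 at 51.3 and 47.8 CPM in them, against 2.62 CPM or less in C4-2. COL1A1 went the other way (4.89 and 4.0 CPM against 49.5 and 50.8 CPM), as did PDGFRB at 1.36 CPM or less, FN1 was at 38.2 and 40.03 CPM against 26.9 and 28.1 CPM, and the other 4 did not exceed 0.273 CPM in either line. Of the neuroendocrine markers, NCAM1 was at 112 and 109 CPM against 0.325 CPM or less, and CHGA, SYP and INSM1 were also higher in the LNCaP-labelled libraries. Summed endothelial markers did not exceed 1.64 CPM in these LNCaP-labelled libraries and were higher in C4-2, at 6.30 to 8.76 CPM. The files do not settle whether these cells were LNCaP as labelled, and every value called LNCaP below, and every difference between the lines, rests on that label.

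The promoters of the targets are shown because RBPJ acts through them. RefSeq (GRCh38.p14) held a 300-base window, from 250 bases before to 50 after the transcription start, for 8 of the 10 genes, all but DLL1 and HEY1. The RBPJ core TGGGAA was searched on both strands and occurred in 24.0% of 35116 such windows, and 2 or more copies in 3.8%. Of the 8 members, HES1 and HEY2 held 2 copies each and the other 6 held none, which says only that these letters are not in those windows. The upstream stretches of HES1, HEY2 and NRARP outside annotated exons are printed 5′ to 3′ on the gene's strand, with each core in capitals. They are chr3:194135898-194136144 (plus strand, directly upstream of HES1), chr6:125749382-125749579 (plus strand, upstream of the RefSeq HEY2 start and inside the longer HEY2 gene of the count annotation) and chr9:137302272-137302521 (minus strand, upstream of NRARP).
HES1: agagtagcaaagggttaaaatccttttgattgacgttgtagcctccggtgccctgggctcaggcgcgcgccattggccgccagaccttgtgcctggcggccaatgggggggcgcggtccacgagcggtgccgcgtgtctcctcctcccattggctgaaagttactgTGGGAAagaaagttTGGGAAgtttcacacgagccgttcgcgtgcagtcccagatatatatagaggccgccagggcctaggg
HEY2: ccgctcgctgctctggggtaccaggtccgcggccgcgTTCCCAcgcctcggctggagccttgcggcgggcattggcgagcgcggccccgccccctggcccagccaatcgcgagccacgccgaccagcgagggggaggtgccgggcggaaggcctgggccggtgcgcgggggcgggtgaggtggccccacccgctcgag
NRARP: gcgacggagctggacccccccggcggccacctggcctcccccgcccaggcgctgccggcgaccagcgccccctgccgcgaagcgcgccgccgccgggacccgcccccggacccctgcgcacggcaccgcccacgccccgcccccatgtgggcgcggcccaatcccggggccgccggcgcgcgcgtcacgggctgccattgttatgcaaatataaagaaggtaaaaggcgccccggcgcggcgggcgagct
In HES1 the cores began 84 and 70 bases before the start on the gene's strand. In HEY2 one began 213 bases before the start, read from the opposite strand and so printed as its reverse complement. The other HEY2 core began 3 bases before the start and ran across it, from inside an annotated exon, and was not printed. NRARP was among the 6 members without a copy in the window.

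The order of the Notch genes by level differed between the lines. With R1881 alone, 8 of the 10 were at 6.74 CPM or more in every library of both lines, and HEY1 and HEY2 were near 0 in C4-2. Per kilobase of exon, the scale on which genes can be compared, HEY1 led in the libraries labelled LNCaP with R1881 alone at a mean level of 179 CPM per kb, ahead of NRARP and HES1 at 25.6 CPM per kb each. In C4-2 with R1881 alone the ligand JAG2 led at 13.2 CPM per kb, followed by NRARP at 7.49 and NOTCH2 at 6.89 CPM per kb. JAG2 stayed first in all 4 C4-2 groups and HEY1 first in both LNCaP groups. All other levels below are CPM for a whole gene and are compared between samples only. In bulk RNA, fewer cells of a type and less RNA per cell cannot be told apart.

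**Figure D1:**
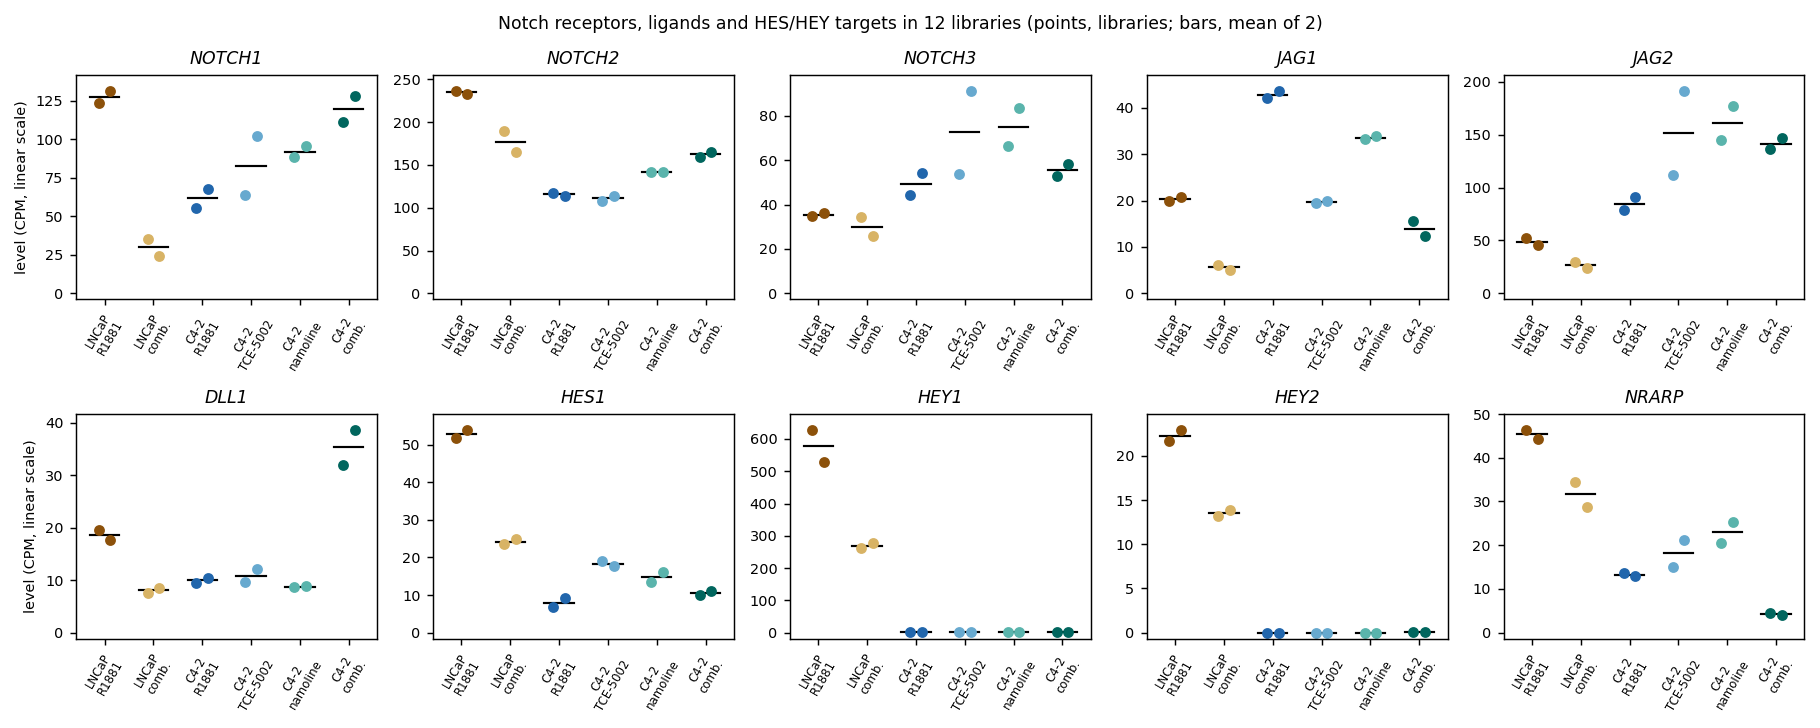
Level of each of the 10 Notch genes (vertical axis, CPM on a linear scale that differs between panels) in the 6 groups (horizontal axis); points are the 2 libraries of a group and bars their mean. HEY1 and HEY2 were near 0 in every C4-2 library, NOTCH1 and JAG1 were lowest in the LNCaP combination, and DLL1 was highest in the C4-2 combination.

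The first comparison set the lines against each other with R1881 alone. All 4 targets were higher in the libraries labelled LNCaP, and the ligands and receptors were split. A gene was called when edgeR's adjusted p was under 0.05 and the change at least 2-fold. By this rule 6 of the 10 genes were called, 5 higher in LNCaP and 1 higher in C4-2. The background was high, since 50.5% of 19763 genes tested were called (26.2% higher in LNCaP, 24.3% lower), so the number of members called is no result about Notch genes. Without the 2-fold condition all 10 passed, against 76.8% of all genes.

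Among receptors, NOTCH1 stood at 123 and 132 CPM in the LNCaP R1881 libraries and at 55.7 and 67.6 CPM in C4-2. The groups did not overlap, and the log2 difference was 1.03 ± 0.12 (SE, n = 2 per group, edgeR adjusted p = 3.67e-08). The NOTCH1 call rested near the 2-fold line, at 0.90 without C4-2 R1881 replicate 1 and 0.76 after a correction for GC content. NOTCH2 had 237 and 233 CPM in LNCaP and 117 and 114 CPM in C4-2, a log2 difference of 0.99 ± 0.09 (edgeR adjusted p = 2.3e-10) that missed 2-fold by little. NOTCH2 was called with RLE scaling (1.045), library totals (1.064) and DESeq2 (1.045), and was at 0.79 after the GC correction. Its annotated near-copy NOTCH2NLA had 0.409 to 1.06 CPM in the 12 libraries, and reads matching both genes were not counted. NOTCH3 went the other way at 34.8 and 36.2 CPM in LNCaP and 44.4 and 54.4 CPM in C4-2, a log2 difference of -0.50 ± 0.12 (edgeR adjusted p = 0.000571).

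Both Jagged ligands were at higher levels in C4-2. JAG1 had 19.9 and 20.8 CPM in LNCaP and 42 and 43.7 CPM in C4-2. Its log2 difference was -1.10 ± 0.12 (edgeR adjusted p = 2.01e-08) and it was the single member called higher in C4-2. JAG2 followed with 52.3 and 45.6 CPM against 78.4 and 91.1 CPM (-0.82 ± 0.11 on the log2 scale, edgeR adjusted p = 2.1e-07), under 2-fold, and reached -1.11 after the GC correction. DLL1, a Delta-like ligand, was at 19.6 and 17.7 CPM in LNCaP and 9.50 and 10.5 CPM in C4-2. That is a log2 difference of 0.88 ± 0.14 (edgeR adjusted p = 4.08e-06) in the opposite direction to the Jagged genes.

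The targets separated the lines most. HEY1 had 628 and 529 CPM in the LNCaP R1881 libraries and 0.702 and 1.10 CPM in C4-2, where the libraries held 15 and 17 counts. The log2 difference was 9.33 ± 0.16 (644-fold, edgeR adjusted p = 9.18e-23). This SE was derived from the test statistic and understates the error, since counting error on 15 and 17 counts alone is larger. HEY2 had 21.7 and 22.9 CPM in LNCaP and no count in either C4-2 R1881 library. Against the limit that 3 counts per library allow, 0.195 CPM, it was at least 114-fold higher in LNCaP, a bound that covers counting error only. HES1 had 51.7 and 53.9 CPM in LNCaP and 6.74 and 9.16 CPM in C4-2, 6.60-fold apart (log2 2.72 ± 0.13, edgeR adjusted p = 6.16e-15). NRARP had 46.3 and 44.3 CPM against 13.6 and 12.9 CPM, 3.34-fold apart (log2 1.74 ± 0.12, edgeR adjusted p = 6.46e-12). The 9 mesenchymal markers summed to 735 to 824 CPM in LNCaP, most of it VIM, against 80.5 to 82.3 CPM in C4-2, where COL1A1 and PDGFRB were higher. The part of the source of these transcripts and of NCAM1 in the target levels was not tested.

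**Figure D2:**
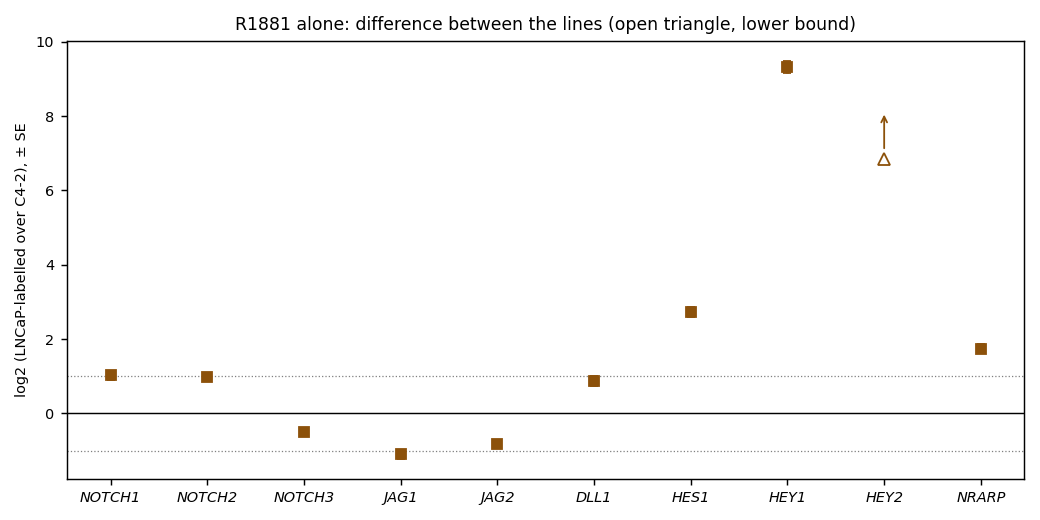
Log2 ratio of the LNCaP-labelled over the C4-2 level with R1881 alone (vertical axis) for the 10 genes (horizontal axis), with SE bars mostly smaller than the symbols; dotted lines mark 2-fold and the open triangle with an arrow is the lower bound of HEY2. HEY1 stands at 9.33, with an SE bar that understates its counting error, and NOTCH3, JAG1 and JAG2 lie below 0.

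In C4-2 the inhibitors were given singly and together, and 9 of the 10 genes had enough counts to be tested. HEY2 was left out, with 0 counts in 6 of the 8 C4-2 libraries and 1 count in each combination library. Namoline left 1 of 9 members past both thresholds (HEY1, higher), against 12.1% of 17702 genes tested (5.17% higher, 6.88% lower). At adjusted p alone 7 of 9 passed, against 35% of genes. TCE-5002 left 2 of 9 (HES1 higher, JAG1 lower), against 11.8% (5.04% higher, 6.8% lower), and 4 of 9 at adjusted p alone, against 36.5%. The combination left 3 of 9 (DLL1 higher, JAG1 and NRARP lower), against 21.7% (8.87% higher, 12.8% lower), and 6 of 9 at adjusted p alone, against 50.3%. The 3 treatments share the same R1881 libraries, so their values for a gene are set side by side below without a measure of likeness.

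The receptors did not reach 2-fold under any of the 3 treatments. NOTCH1 went from 55.7 and 67.6 CPM with R1881 to 88.2 and 95.4 CPM with namoline, 63.6 and 102 CPM with TCE-5002 and 111 and 128 CPM with the combination. The combination libraries lay above both R1881 libraries, with a log2 change of 0.93 ± 0.18 (edgeR adjusted p = 0.000538), and the change was 1.01 after the GC correction, past the 2-fold line. The log2 change of NOTCH1 was 0.56 ± 0.18 with namoline (edgeR adjusted p = 0.0226) and 0.43 ± 0.18 with TCE-5002 (edgeR adjusted p = 0.0686). NOTCH2 had 142 and 141 CPM with namoline, 108 and 114 CPM with TCE-5002 and 159 and 166 CPM with the combination, where its log2 change was 0.46 ± 0.10 (edgeR adjusted p = 0.00195). NOTCH3 had 66.3 and 83.7 CPM with namoline, 53.9 and 91.3 CPM with TCE-5002 and 52.7 and 58.4 CPM with the combination. Its combination libraries overlapped those of R1881 alone, and the log2 change was 0.15 ± 0.20 (edgeR adjusted p = 0.559).

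JAG1 and DLL1 moved in opposite directions under the combination. JAG1 stood at 42 and 43.7 CPM with R1881 alone, 33.2 and 33.9 CPM with namoline, 19.5 and 19.9 CPM with TCE-5002 and 15.5 and 12.4 CPM with the combination. No 2 of these groups overlapped. JAG1 fell with TCE-5002 by 1.12 ± 0.14 on the log2 scale (edgeR adjusted p = 3.18e-05) and with the combination by 1.64 ± 0.14 (edgeR adjusted p = 6.19e-07), and both calls held in every alternative run. With namoline its log2 change was -0.37 ± 0.13 (edgeR adjusted p = 0.0453), under 2-fold. DLL1 stayed between 8.69 and 12.2 CPM in the 6 libraries without the combination and was at 32.0 and 38.6 CPM with it. It rose 3.48-fold under the combination (log2 1.80 ± 0.16, edgeR adjusted p = 9.92e-07), while its log2 change was -0.20 ± 0.17 with namoline (edgeR adjusted p = 0.416) and 0.13 ± 0.17 with TCE-5002 (edgeR adjusted p = 0.596).

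JAG2, the second Jagged ligand, was above its R1881 level of 78.4 and 91.1 CPM in all 6 treated C4-2 libraries. It had 145 and 177 CPM with namoline, 112 and 191 CPM with TCE-5002 and 136 and 147 CPM with the combination. The log2 changes were 0.91 ± 0.19 (edgeR adjusted p = 0.00195), 0.84 ± 0.19 (edgeR adjusted p = 0.00326) and 0.71 ± 0.19 (edgeR adjusted p = 0.00624), all under 2-fold. The TCE-5002 value depended on 1 library, since it was 0.41 without TCE-5002 replicate 2 and 1.17 without replicate 1.

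Of the targets, HES1 had its highest C4-2 level under TCE-5002 alone. HES1 was at 6.74 and 9.16 CPM with R1881, 13.4 and 16.2 CPM with namoline, 19.1 and 17.6 CPM with TCE-5002 and 9.99 and 11.1 CPM with the combination. The 4 groups did not overlap. HES1 rose 2.33-fold with TCE-5002 (log2 1.22 ± 0.18, edgeR adjusted p = 0.000137), and this call held in every alternative run. Its log2 change was 0.90 ± 0.18 with namoline (edgeR adjusted p = 0.00152) and 0.39 ± 0.18 with the combination (edgeR adjusted p = 0.0904).

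NRARP was the target with the clearest change under the combination. It had 13.6 and 12.9 CPM with R1881, 20.5 and 25.4 CPM with namoline, 15.1 and 21.3 CPM with TCE-5002 and 4.60 and 3.94 CPM with the combination. Both combination libraries lay below every other C4-2 library while the single treatments lay above R1881 alone. NRARP fell under the combination by 1.66 ± 0.21 on the log2 scale (edgeR adjusted p = 1.75e-05). Its log2 changes were 0.78 ± 0.18 with namoline (edgeR adjusted p = 0.00427) and 0.46 ± 0.18 with TCE-5002 (edgeR adjusted p = 0.0641). After the GC correction these 2 changes were 0.49 and 0.06, while the combination change was -1.59. The TCE-5002 change was 0.20 without TCE-5002 replicate 2.

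HEY1 stayed at the edge of detection in C4-2. Its levels were 0.702 and 1.10 CPM with R1881, 1.83 and 1.98 CPM with namoline, 1.55 and 1.82 CPM with TCE-5002 and 1.59 and 1.69 CPM with the combination, from 15 to 34 counts per library. HEY1 rose with namoline by 1.09 ± 0.36 on the log2 scale (edgeR adjusted p = 0.0271). The call was lost with scaling by library totals (0.94, edgeR adjusted p = 0.0551), with DESeq2 (adjusted p = 0.0982) and without 1 library in 3 cases, namely C4-2 R1881 replicate 1 (0.78), namoline replicate 1 (1.12) and namoline replicate 2 (1.02). The log2 changes of HEY1 with TCE-5002 and the combination were 0.93 ± 0.36 and 0.86 ± 0.36, neither of them called, although the TCE-5002 change was called after the GC correction (1.05, edgeR adjusted p = 0.0222).

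**Figure D3:**
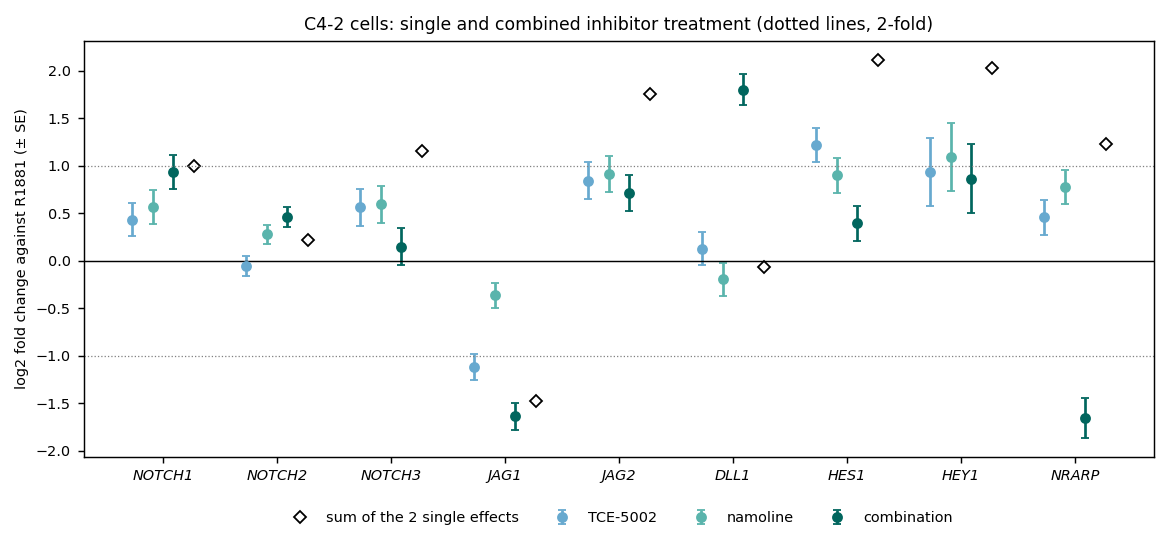
Log2 fold change against R1881 in C4-2 (vertical axis, ± SE) for the 9 genes tested, with TCE-5002, namoline and the combination as filled points and the sum of the 2 single changes as open diamonds; dotted lines mark 2-fold. The DLL1 combination point lies at 1.80 with its diamond near 0, and the NRARP combination point lies at -1.66 with its diamond at 1.23.

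The full cross of inhibitors in C4-2 allowed the combination to be set against the sum of the single changes on the log2 scale (the interaction). DLL1 was above that sum, and NOTCH3, JAG2, HES1 and NRARP were below it, which makes 5 of 9 members called against 35.3% of all genes (16.7% above, 18.6% below). The same 5 passed at adjusted p alone, against 53.5%. For NRARP the single changes summed to 1.23, the combination gave -1.66, and the interaction was -2.89 ± 0.28 (edgeR adjusted p = 7.96e-07). After the GC correction the NRARP interaction was -2.14, beside 2.09 for DLL1. For DLL1 the sum was -0.07 and the combination 1.80, an interaction of 1.87 ± 0.24 (edgeR adjusted p = 1.26e-05). For HES1 the sum was 2.12 and the combination 0.39, an interaction of -1.72 ± 0.25 (edgeR adjusted p = 4.49e-05). These 3 interactions were called in every alternative run.

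The interactions of NOTCH3 and JAG2 were less firm. They were -1.0 ± 0.28 (edgeR adjusted p = 0.00702) and -1.04 ± 0.27 (edgeR adjusted p = 0.00428), just past 2-fold, and came to -0.60 and -0.62 without TCE-5002 replicate 2 and to -0.50 and -0.48 after the GC correction. RLE scaling, library totals and DESeq2 also put both under 2-fold, at -0.89 to -0.99. HEY1 had an interaction of -1.16 ± 0.48 (edgeR adjusted p = 0.0563) and was not called, but it was called after the GC correction (-1.30, edgeR adjusted p = 0.0284), by the likelihood ratio test (adjusted p = 0.0293), with all 12 libraries in one fit (edgeR adjusted p = 0.0166) and without C4-2 R1881 replicate 2 (-1.49, edgeR adjusted p = 0.0468). JAG1 had an interaction of -0.16 ± 0.20 (edgeR adjusted p = 0.519), with a combination change of -1.64 beside a sum of -1.48. NOTCH1 had -0.06 ± 0.25 (edgeR adjusted p = 0.854), although the GC correction gave 0.42 (edgeR adjusted p = 0.00701), under 2-fold.

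The TCE-5002 replicates parted along transcript GC content. Replicate 2 exceeded replicate 1 by 1.61-fold in NOTCH1, 1.69-fold in NOTCH3, 1.71-fold in JAG2 and 1.41-fold in NRARP, whose transcripts are 62.9 to 67.3% GC. For JAG1, HES1 and NOTCH2, with 49.4 to 49.9% GC, the ratio was 0.925 to 1.06, and DLL1 (58.3% GC) and HEY1 (47.3% GC) had 1.27 and 1.17. Over genes above 10 CPM the median log2 ratio went from -0.33 below 40% GC to 0.69 at 65% GC or more. The 2 TCE-5002 libraries thus lay farthest apart for the GC-rich members, and the calls of JAG1 and HES1 come from genes whose 2 libraries lay close together. The C4-2 fits estimated the spread of a gene over all 4 groups. The TCE-5002 pair therefore also entered the SE and p-values of the namoline and combination tests.

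**Figure D4:**
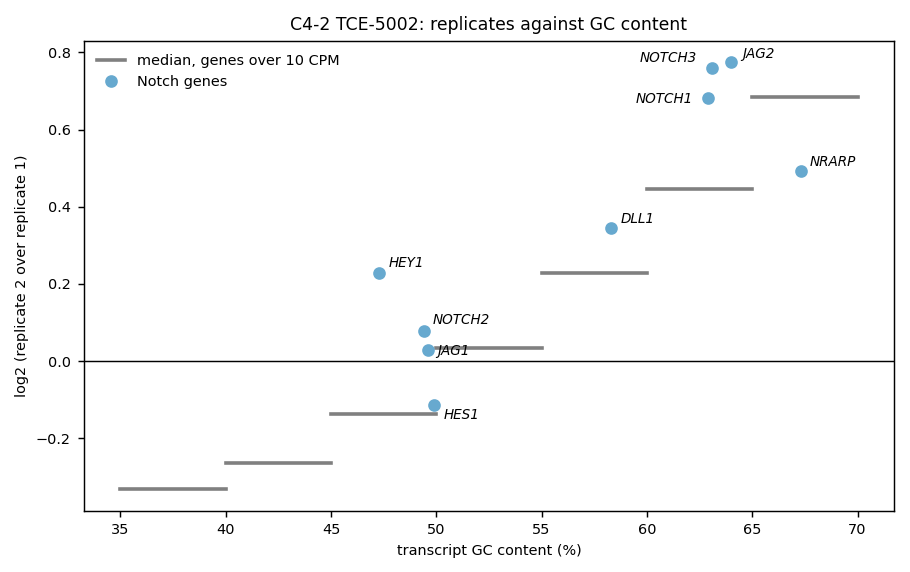
Log2 ratio of C4-2 TCE-5002 replicate 2 over replicate 1 (vertical axis) against transcript GC content in percent (horizontal axis); points are the 9 Notch genes with at least 10 counts in both libraries and grey bars the median of all genes above 10 CPM in each GC class, the outer classes being open-ended. NOTCH1, NOTCH3 and JAG2 lie between 0.68 and 0.77, and JAG1, NOTCH2 and HES1 lie near 0.

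In the libraries labelled LNCaP, the combination went with lower levels across receptors, ligands and targets. The genes called were NOTCH1, JAG1, DLL1, HES1 and HEY1, 5 of 10 and all lower, against 18.7% of 17565 genes called in either direction with 7.44% called higher and 11.3% lower. All 10 fitted changes were below 0, but those of NOTCH3 and NRARP turned to 0.29 each after the GC correction (edgeR adjusted p = 0.0213 and 0.0134). Without the 2-fold condition 9 of the 10 passed, against 56.2% of all genes. Without replicate 1, the library whose header names no TCE-5002, 4 genes were called and the fifth, HEY1, was at -0.999 on the log2 scale, just short of 2-fold.

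NOTCH1 had the largest change, except after the GC correction, where it was -1.57 on the log2 scale beside -1.75 for JAG1. NOTCH1 fell from 123 and 132 CPM to 35.5 and 24.4 CPM, a log2 change of -2.04 ± 0.13 (edgeR adjusted p = 1.57e-14), or -2.33 without replicate 1. NOTCH2 had 189.6 and 165 CPM under the combination (log2 -0.35 ± 0.10, edgeR adjusted p = 0.00519), and NOTCH3 had 34.3 and 25.9 CPM, the first close under its R1881 libraries of 34.8 and 36.2 CPM (log2 -0.18 ± 0.13, edgeR adjusted p = 0.239). Without replicate 1 the log2 changes of NOTCH2 and NOTCH3 were -0.46 and -0.40.

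All 3 ligands were lower. JAG1 fell to 6.12 and 5.12 CPM from 19.9 and 20.8 CPM, by 1.80 ± 0.17 on the log2 scale (edgeR adjusted p = 1.22e-10), and by 1.93 without replicate 1. DLL1 fell to 7.63 and 8.52 CPM from 19.6 and 17.7 CPM, a log2 change of -1.15 ± 0.16 (edgeR adjusted p = 3.34e-07), or -1.08 without replicate 1. The DLL1 change was -0.89 after the GC correction, under 2-fold. JAG2 had 30.04 and 23.7 CPM against 52.3 and 45.6 CPM (log2 -0.81 ± 0.13, edgeR adjusted p = 2.43e-06), which was -0.27 after the GC correction and -0.99 without replicate 1.

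The targets were lower by smaller amounts than NOTCH1. HEY1 fell from 628 and 529 CPM to 261 and 279 CPM, a log2 change of -1.04 ± 0.11 (edgeR adjusted p = 1.93e-09), which was -0.92 without LNCaP R1881 replicate 1. HES1 fell from 51.7 and 53.9 CPM to 23.5 and 25.0 CPM (log2 -1.06 ± 0.12, edgeR adjusted p = 5.15e-09), or -1.03 without replicate 1. HEY2 had 13.2 and 13.8 CPM against 21.7 and 22.9 CPM (log2 -0.66 ± 0.14, edgeR adjusted p = 0.000207). NRARP had 34.5 and 28.7 CPM against 46.3 and 44.3 CPM (log2 -0.46 ± 0.12, edgeR adjusted p = 0.00171). HEY2 and NRARP, whose groups did not overlap, were under 2-fold, at -0.63 and -0.60 without replicate 1. In both lines the combination went with lower summed luminal marker levels, 515 to 654 CPM in LNCaP and 2948 to 3080 CPM in C4-2. Not every marker fell. In C4-2, KRT8 rose from 352.6 and 400.9 CPM to 557.6 and 573.6 CPM. KRT18 rose there from 319.3 and 326.4 CPM to 353.6 and 368.5 CPM. In LNCaP, FOLH1 rose from 36.75 and 34.98 CPM to 45.54 and 43.82 CPM. The other luminal markers were lower in each line. The part of the luminal marker changes in the Notch values was not tested.

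The effect of the combination was then compared between the lines in one fit. It differed for 6 of the 10 genes, against 25.3% of 19763 genes tested (11.4% with the higher change in C4-2, 13.9% with the lower). At adjusted p alone 7 of 10 passed, against 47.6%. NOTCH1, JAG2, DLL1, HES1 and HEY1 had the higher change in C4-2, and NRARP the lower. NOTCH1 differed by 2.92 ± 0.17 on the log2 scale (edgeR adjusted p = 5.03e-12) and DLL1 by 2.90 ± 0.20 (edgeR adjusted p = 4.34e-11). DLL1 rose in C4-2 and fell in LNCaP, and NOTCH1 fell in LNCaP while its C4-2 change stayed under 2-fold. JAG2 differed by 1.47 ± 0.15 (edgeR adjusted p = 2.95e-08), HES1 by 1.41 ± 0.19 (edgeR adjusted p = 1.82e-06) and HEY1 by 1.87 ± 0.33 (edgeR adjusted p = 5.05e-05), the last on few C4-2 counts. NRARP differed by -1.24 ± 0.20 (edgeR adjusted p = 1.58e-05), with the lower change in C4-2, and by -1.88 after the GC correction.

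JAG1 was not called. Its combination changes in C4-2 and LNCaP were -1.64 and -1.80, and they differed by 0.11 ± 0.20 (edgeR adjusted p = 0.676), so JAG1 was the member called lower in both lines. Without LNCaP combination replicate 1 the JAG1 difference was 0.22 (edgeR adjusted p = 0.443). NOTCH2 differed by 0.76 ± 0.12 (edgeR adjusted p = 1.37e-05), or 0.85 without that library, under 2-fold. NOTCH3 differed by 0.28 ± 0.17 (edgeR adjusted p = 0.181), by 0.48 without that library (edgeR adjusted p = 0.0111) and by -0.06 after the GC correction. Leaving out LNCaP combination replicate 1 kept all 6 differences past both thresholds, between -1.13 for NRARP and 3.19 for NOTCH1. No fold is given for HEY2, whose C4-2 libraries held at most 1 count.

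**Figure D5:**
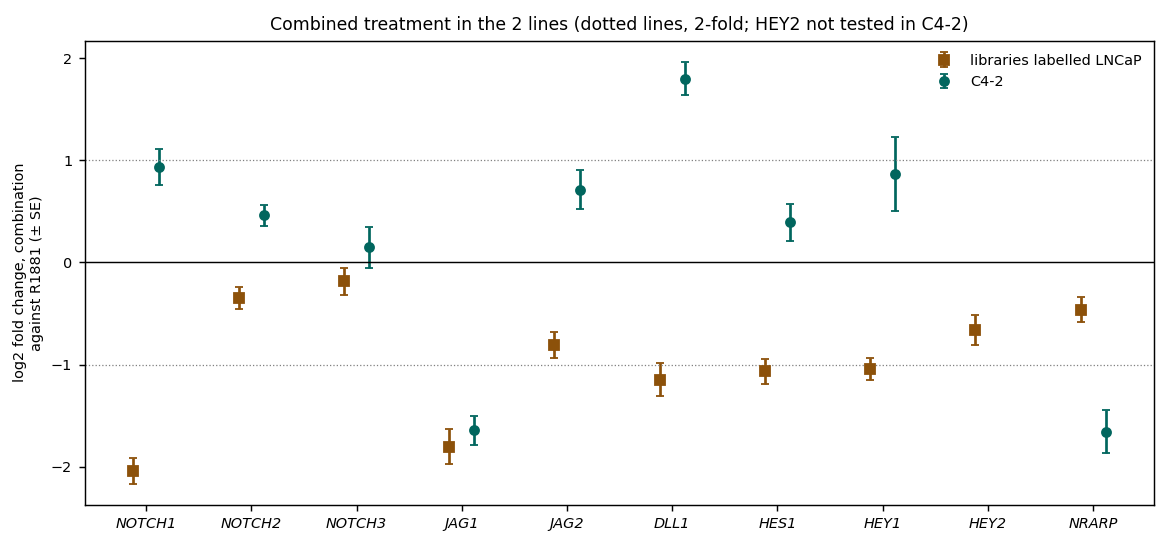
Log2 fold change under the combination against R1881 (vertical axis, ± SE) in the libraries labelled LNCaP (squares) and in C4-2 (circles) for each gene; dotted lines mark 2-fold and HEY2 was tested in LNCaP alone. All LNCaP squares lie below 0, with those of NOTCH3 and NRARP above 0 after the GC correction. JAG1 (LNCaP -1.80, C4-2 -1.64) and NRARP (LNCaP -0.46, C4-2 -1.66) lie below 0 in both lines. The C4-2 circles of all other genes tested in both lines, NOTCH1 and DLL1 among them, lie above 0.

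The rest of the pathway was followed in 57 further genes, of which 47 to 54 had enough counts in a given comparison. With R1881 alone, 18 were called higher in LNCaP and 11 higher in C4-2, together 53.7% of 54 beside 50.5% of all genes. HEYL, another HEY repressor, had 14.7 and 12.8 CPM in LNCaP and no count in the C4-2 R1881 libraries, at least 70.6-fold apart. HES4 was 2.97 ± 0.12 higher in LNCaP on the log2 scale (edgeR adjusted p = 2.89e-16), as HES1, HEY1 and HEY2 were. LFNG, a glycosyltransferase that alters which ligands a Notch receptor answers to, was lower in LNCaP by 3.25 ± 0.36 (edgeR adjusted p = 2.11e-08), and HES6, an antagonist of HES1, by 1.87 ± 0.13 (edgeR adjusted p = 2.18e-12).

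Under the single treatments in C4-2, 2 of 47 further pathway genes were called with namoline (4.26%, against 12.1% of all genes) and 6 of 47 with TCE-5002 (12.8%, against 11.8%). HES4 rose with both, by 1.29 ± 0.25 (edgeR adjusted p = 0.00116) and 1.81 ± 0.25 (edgeR adjusted p = 8.53e-05) on the log2 scale, though its TCE-5002 libraries lay apart at 35.6 and 69.4 CPM. After the GC correction the HES4 changes were 0.83, under 2-fold, and 1.12, and no further pathway gene was called with namoline. DLL3, a Delta-like ligand, rose with TCE-5002 by 1.43 ± 0.20 (edgeR adjusted p = 8.51e-05). The combination called 12 of 47, 4 higher and 8 lower, which is 25.5% beside 21.7% of all genes. LFNG, at 4.68 and 5.33 CPM with R1881, fell to 1.70 and 1.44 CPM (log2 -1.68 ± 0.26, edgeR adjusted p = 0.000121). HES6 fell from 144 and 151 CPM to 63.9 and 65 CPM (log2 -1.22 ± 0.19, edgeR adjusted p = 0.000114), and APH1B, a subunit of the gamma-secretase that releases the intracellular domain, fell by 1.44 ± 0.15 (edgeR adjusted p = 3.2e-06). CIR1, a corepressor of RBPJ, rose by 1.05 ± 0.17 (edgeR adjusted p = 0.00016). In LNCaP the combination called 7 of 51, all lower, 13.7% beside 18.7% of all genes. Without replicate 1 it called 14 of 52, 1 higher and 13 lower, 26.9% beside 18.8%. With both replicates and the GC correction it called 6 of 51, 1 higher and 5 lower, 11.8% beside 17% of all genes. FURIN, the protease that matures Notch receptors, fell by 1.41 ± 0.12 (edgeR adjusted p = 1.26e-11). Its fall was 1.61 without replicate 1 and 1.01 after the GC correction. HES4 fell by 1.2 ± 0.12 (edgeR adjusted p = 1.67e-10), and by 1.41 without replicate 1, but its change was 0.07 after the GC correction (edgeR adjusted p = 0.543).

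The interaction in C4-2 called 18 of 47 further genes, 6 above the sum of single changes and 12 below it, 38.3% beside 35.3% of all genes. LFNG (-3.28 ± 0.33, edgeR adjusted p = 1.45e-06) and PSEN2, a gamma-secretase subunit (-1.83 ± 0.18, edgeR adjusted p = 9.12e-07), were among the latter, beside NRARP and HES1. The combination effect differed between the lines for 9 of 54, 16.7% beside 25.3% of all genes, and for 8 of 54 without LNCaP combination replicate 1. HES4 was among them at 2.49 ± 0.17 (edgeR adjusted p = 5.06e-11), at 2.67 without that library and at 1.36 after the GC correction.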

How the data were processed

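The authors sequenced polyadenylated RNA in paired ends, filtered and trimmed reads (TrimGalore) and used STAR to align them to GRCh38. The deposited tables hold raw counts of fragments per gene which, per the file headers, came from featureCounts 1.5.0-p1 and Ensembl 83 annotation. Strand was ignored, so sense and antisense reads were not told apart where genes overlap, and fragments matching several places were dropped. Column 6 of the deposited tables gives exon length in bases, used for levels per kb. Groups came from the sample titles, because a treatment field describes siRNA work. The study's methods state biological replicates.

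From the counts, levels were computed as CPM with TMM factors over 12 libraries. Genes kept by filterByExpr were scaled by TMM and tested by quasi-likelihood in edgeR 4.0.16 under R 4.3.3 (limma 3.58.1), and p-values were adjusted by Benjamini-Hochberg over every gene tested. C4-2 comparisons were fitted on 8 C4-2 libraries, the LNCaP comparison on 4, and the comparisons of lines on the 8 libraries with R1881 alone or the combination. Each SE was derived from the test, as the absolute log2 change divided by the square root of the F statistic. The steps were tested on simulated counts. Alternatives were RLE scaling, library totals, no filter, DESeq2 1.42.0, the likelihood ratio test, adjusted p alone, a replicate block, other sets of libraries, each library left out and, chosen after seeing the data, a correction of each library for GC content. The members and the gene lists were chosen with earlier results of these data known. All members are named whatever their values, and further pathway genes are named only as examples of those called. One marker gene is not reported here.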

Additional observations from a re-analysis of the deposited data

Results flagged for a closer look

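Both lines received the combination, and its effect differed between them by the test of the difference itself (edgeR, 8 libraries) for 6 genes. On the log2 scale, C4-2 minus LNCaP, the differences were 2.92 for NOTCH1, 1.47 for JAG2, 2.90 for DLL1, 1.41 for HES1, 1.87 for HEY1 and -1.24 for NRARP. Line differences past both thresholds were common, since 25.3% of 19763 genes tested passed them. Over all genes tested the median absolute difference was 0.783. How many genes reached the size seen in NOTCH1 and DLL1 was not counted. HEY1 rested on 15 to 28 counts per C4-2 library in this comparison. All groups held 2 libraries, too few to look for a single library far from the rest of its group.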

How the results depend on the processing

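The 6 differences between the lines in the combination effect were called in every alternative run. The other counts of members called moved by more than 1.5 times as follows. Without the 2-fold condition, 7 members passed with namoline, 4 with TCE-5002, 6 with the C4-2 combination, 9 with the LNCaP combination and 10 between the lines with R1881 alone. The namoline count of 1 became 0 with library totals alone and with DESeq2, with 7 of 9 members fitted above 0 in each. The interaction count of 5 became 3 with RLE scaling, library totals alone, DESeq2 and the replicate block, NOTCH3 and JAG2 being lost each time (-0.96 and -0.999 with the block). Leaving out each library in turn gave 0 to 3 members for namoline, 2 to 3 for TCE-5002, 3 to 4 for the C4-2 combination, 3 to 6 for the interaction, 4 to 5 for the LNCaP combination, 6 to 7 for the baseline and 6 for the line difference. A library left alone in its group was assumed to vary like the others.

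Replicate numbers shared between groups were not taken to pair the samples, since the labels name no shared batch and the deviations of same-numbered libraries correlated over 0.1 in 3 of 6 pairs of C4-2 groups (0.117 to 0.268, the others -0.012 to 0.042) and at -0.006 in LNCaP. The replicate block gave 1 member for namoline, 2 for TCE-5002, 3 for the C4-2 combination, 5 for the LNCaP combination, 6 for the baseline and 6 for the line difference, the same numbers as without the block. No call of a member reversed. With 2 libraries per group and at most 34 counts of HEY1 per C4-2 library, changes of HEY1 and HEY2 in C4-2 were limited by depth.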

Other observations

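Over the 4 treated groups, each centred on R1881 alone in its line, the genes whose pattern was most like HES1 among 9930 searched were MRPL34, SAMD11 and ATP6V0C, with a root mean square difference of 0.098, 0.103 and 0.137 on the log2 CPM scale. MRPL34 encodes a mitochondrial ribosomal protein. The genes most like JAG1 were CYP4V2, ZBTB38 and HOXB6, at 0.195, 0.361 and 0.375. CYP4V2 encodes a cytochrome P450 that acts on fatty acids. In the 4 groups (C4-2 namoline, TCE-5002 and combination, LNCaP combination) the group means of JAG1 were -0.34, -1.08, -1.56 and -1.69, and those of CYP4V2 were -0.68, -0.92, -1.67 and -1.68. The search had 4 points per gene, so likeness is a description.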
